A study of Homo sapiens with 12 samples.

Results

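The WNT and beta-catenin target genes described here are AXIN2, NKD1, SP5, RNF43, ZNRF3, EPHB2, EPHB3, LEF1 and TCF7, direct targets and feedback genes of the pathway. They were taken by symbol from the deposited expression table, and all 9 had a row among the 13091 rows named by a gene. Expression was measured by RNA sequencing in AGS and MKN74, a pair of human gastric cancer cell lines. The groups were AGS with ONECUT2 overexpression, control AGS, MKN74 with ONECUT2 overexpression and control MKN74, with 1 library each. ONECUT2 is a homeodomain transcription factor, and the study asked what it does in gastric cancer cells. The sources used here do not give the vector, the control construct or whether the overexpressing cells are a pool or a clone, and the 8 chromatin immunoprecipitation samples in the labels were not analysed here.

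WNT ligands bind Frizzled receptors and LRP co-receptors, which stops a cytoplasmic destruction complex from degrading beta-catenin. Beta-catenin then enters the nucleus and joins TCF and LEF proteins on DNA, where target genes are switched on. Several of these targets feed back on the pathway: AXIN2 and NKD1 act inside the cell, and RNF43 and ZNRF3 remove Frizzled receptors from the cell surface. In the gut the pathway maintains stem cells, and AGS cells are known to carry an activating CTNNB1 mutation.

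Recovered reads per library came to 36492454 in AGS overexpression, 36132888 in control AGS, 38110453 in MKN74 overexpression and 36097456 in control MKN74. Levels are given in CPM, which bring each library's reads to the same total, and are not corrected for gene length, so they are compared within a gene only. A change subtracts the control's log2(CPM + 1) from that of the overexpression library, a scale on which low genes move less than their CPM do. A ratio is one of CPM, and its interval is an exact conditional binomial one at 95% that covers counting error only. With 1 library per group, a change within a line has no replicate check and no test. ONECUT2 itself stood at 18.3 CPM in AGS overexpression against 4.39 CPM in control AGS, and at 57.6 CPM in MKN74 overexpression against 5.14 CPM in control MKN74. All 8 epithelial markers examined were measured in both lines and summed to between 5818 and 14450.2 CPM per library, with 9333 CPM in MKN74 overexpression and 14450.2 CPM in control MKN74. Of 6 fibroblast markers 1 had a row, of 6 immune markers 2, and of 5 endothelial markers 0. The fibroblast marker COL1A1 stood at 18.3 CPM in AGS overexpression against 16.7 CPM in control AGS, a change of 0.13, and at 12.6 CPM in MKN74 overexpression against 6.77 CPM in control MKN74, a change of 0.81. The immune marker CD68 stood at 11.2 CPM in AGS overexpression against 6.14 CPM in control AGS, a change of 0.78, and at 6.74 CPM in MKN74 overexpression against 8.45 CPM in control MKN74, a change of -0.29. The immune marker LCP1 stood at 5.34 CPM in AGS overexpression against 2.76 CPM in control AGS, a change of 0.76, and at 2.44 CPM in MKN74 overexpression against 1.699 CPM in control MKN74, a change of 0.35. COL1A1 in MKN74 and CD68 and LCP1 in AGS thus had changes larger than those of most of the WNT targets in the same line. The part of these markers in the results was not tested.

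With ONECUT2 overexpression 5 of 8 measured members were higher in AGS and 6 of 9 in MKN74, beside 49.7% and 46.8% of all genes. RNF43 in MKN74 was higher by only 0.026, with a counting interval that included 1. The largest changes were those of SP5 in AGS and EPHB2 in MKN74. In AGS 8 members passed a mean of 1 CPM, and 1 of them was at least 2-fold higher and 0 lower, beside 4.19% and 0.728% of the 11675 genes measured there. In MKN74 all 9 passed, with 1 at least 2-fold higher and 0 lower, beside 3.26% and 1.35% of 11914 genes. The median change of the measured members was 0.33 in AGS and 0.22 in MKN74, where the median over all genes was -0.0034 and -0.020. With a mean of at least 5 CPM required, which leaves out EPHB2 and NKD1 in MKN74, the median there was 0.026 and the count at least 2-fold higher was 0. The counting interval of the ratio lay above 1 for 5 members and below 1 for 2 in each line. At this depth that held for 37.2% of all AGS genes above 1 and 38.9% below, and for 29.2% and 35.7% in MKN74.

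**Figure D1:**
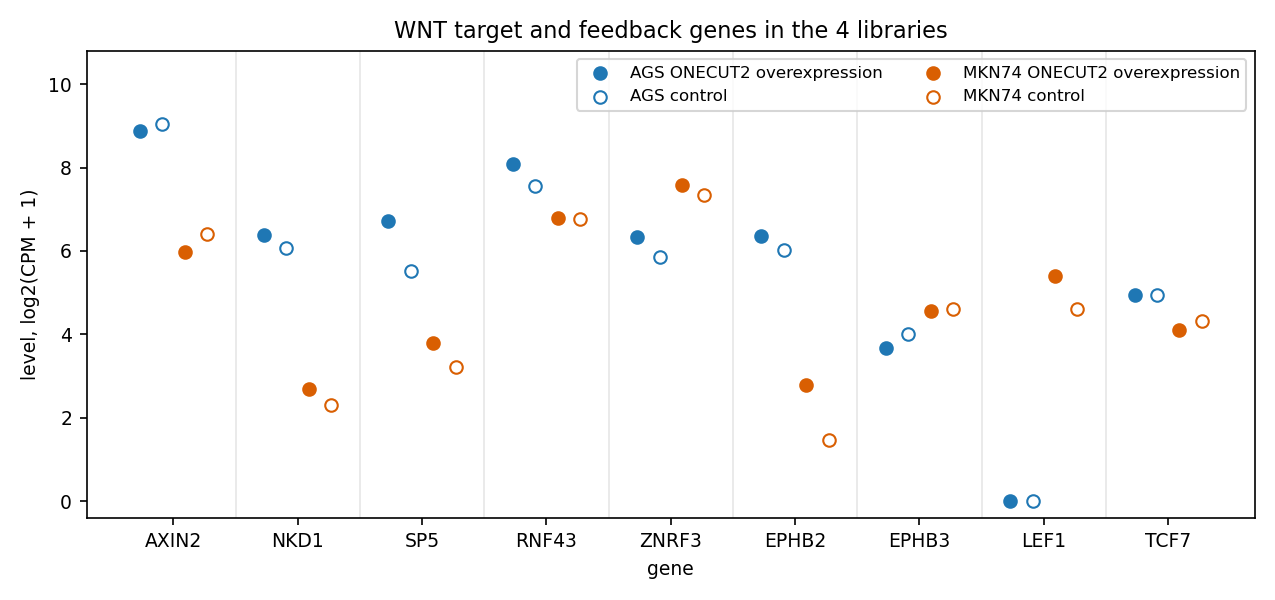
Level of each gene, log2(CPM + 1) on the y axis, in the 4 libraries; filled points are ONECUT2 overexpression and open points are controls, with AGS in blue and MKN74 in orange, and each point is 1 library. AXIN2, NKD1, SP5, EPHB2, RNF43 and TCF7 were higher in both AGS libraries than in both MKN74 libraries, and LEF1 lay at 0 in AGS.

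SP5 is a zinc finger transcription factor that is itself a direct target of beta-catenin. It stood at 104 CPM in AGS overexpression against 44.6 CPM in control AGS. That is a change of 1.20, and the ratio was 2.32 (interval 2.20 to 2.45). In MKN74 overexpression SP5 was at 12.8 CPM, against 8.30 CPM in control MKN74. The change there was 0.57 and the ratio 1.54 (interval 1.35 to 1.77). SP5 was thus higher in the overexpression library of each line, and the change in MKN74 minus that in AGS was -0.63, a difference that could not be tested with 1 library per group.

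The promoters of SP5, EPHB2 and LEF1, the members with the largest changes, are shown because TCF and LEF proteins recognise a short core sequence, CTTTG, often followed by AT (CTTTGAT). Each window holds the 250 bases before the gene's start site in RefSeq, build GRCh38.p14, on the gene's strand, and 6 of the 9 members matched a promoter entry by symbol. SP5 is at chr2:170715087-170715336 on the plus strand, EPHB2 at chr1:22710588-22710837 on the plus strand and LEF1 at chr4:108166302-108166551 on the minus strand. Capitals mark CTTTG, or CAAAG where the match is on the other strand, and AT where it follows.
SP5: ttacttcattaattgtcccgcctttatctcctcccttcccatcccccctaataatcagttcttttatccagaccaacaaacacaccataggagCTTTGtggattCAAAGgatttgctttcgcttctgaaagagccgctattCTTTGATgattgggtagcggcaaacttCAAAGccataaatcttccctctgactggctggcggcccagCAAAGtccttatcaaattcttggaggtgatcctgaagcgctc
EPHB2: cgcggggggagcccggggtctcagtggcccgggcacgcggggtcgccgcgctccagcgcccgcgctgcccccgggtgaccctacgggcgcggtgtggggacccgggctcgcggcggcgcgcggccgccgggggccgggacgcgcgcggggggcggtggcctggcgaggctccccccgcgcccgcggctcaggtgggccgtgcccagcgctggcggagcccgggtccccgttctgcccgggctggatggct
LEF1: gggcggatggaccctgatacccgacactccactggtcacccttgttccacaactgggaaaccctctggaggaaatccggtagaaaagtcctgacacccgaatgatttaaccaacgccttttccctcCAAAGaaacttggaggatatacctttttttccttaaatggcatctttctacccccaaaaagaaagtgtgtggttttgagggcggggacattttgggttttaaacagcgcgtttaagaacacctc

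The SP5 window holds 5 matches to CTTTG, starting 157, 146, 109, 82 and 42 bases before the start site, and the match at 109 is the longer CTTTGAT. The LEF1 window holds 1 match, at 124 bases, and the EPHB2 window holds 0. Searched on both strands in all 35116 promoter windows of the same length, CTTTG was found in 42.1% and CTTTGAT, which contains it, in 2.26%. Windows with at least 5 matches to CTTTG numbered 30, or 0.0854%, a cutoff chosen after the SP5 count was seen. Among the 9 windows of the 6 matched members, 5 held CTTTG, those of LEF1, SP5 and RNF43 and 1 of the windows of TCF7. The longer motif was in the window of SP5 alone. EPHB2, RNF43 and TCF7 had more than 1 window each. Those of EPHB2, starting at 22710588 and 22710589, overlap almost fully, so the 9 windows are not all separate promoters. A core recognised by ONECUT proteins, ATTGAT, which is not part of either motif, was in 0 of the 9 windows and in 5.58% of all windows. These are matches of letters in short windows and say nothing of binding.

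AXIN2, a scaffold of the destruction complex and a widely used readout of beta-catenin activity, was slightly lower with overexpression in both lines. It stood at 469 CPM in AGS overexpression against 523 CPM in control AGS, a change of -0.16 and a CPM ratio of 0.896 (0.879 to 0.914). In MKN74 overexpression it was at 62.2 CPM, against 84.2 CPM in control MKN74, a change of -0.43 and a CPM ratio of 0.739 (0.703 to 0.776). AXIN2 in MKN74 lay at percentile 8.02 of the changes of all genes, and in AGS at percentile 35.2. In AGS its change was -0.032 after quantile normalization.

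NKD1, which binds Dishevelled and dampens the signal inside the cell, was higher with overexpression in both lines. It stood at 82.5 CPM in AGS overexpression against 66.0 CPM in control AGS, a change of 0.32 and a CPM ratio of 1.25 (1.19 to 1.31). In MKN74 overexpression NKD1 was at 5.43 CPM, from 249 reads, against 3.92 CPM and 164 reads in control MKN74. The change there was 0.39 and the ratio 1.38 (1.13 to 1.696). The feedback inhibitors AXIN2 and NKD1 therefore had changes of opposite sign within each line.

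RNF43 and ZNRF3 are related membrane ubiquitin ligases that clear Frizzled receptors, and both were higher in AGS overexpression. RNF43 stood at 272 CPM in AGS overexpression against 188 CPM in control AGS, a change of 0.53 and a CPM ratio of 1.45 (1.41 to 1.49). ZNRF3 stood at 79.8 CPM in AGS overexpression against 57.3 CPM in control AGS, a change of 0.47 and a CPM ratio of 1.39 (1.32 to 1.47). The read ratio of RNF43 to ZNRF3 was 3.40 in AGS overexpression and 3.28 in control AGS, 1.04 times as high.

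In MKN74 the changes of the ligases were smaller, with MKN74 minus AGS at -0.51 for RNF43 and -0.25 for ZNRF3, differences that could not be tested. RNF43 was at 109 CPM in MKN74 overexpression and 107 CPM in control MKN74, a ratio of 1.02 whose interval (0.978 to 1.06) included 1. ZNRF3 was at 189 CPM in MKN74 overexpression against 162 CPM in control MKN74, a change of 0.22 and a CPM ratio of 1.17 (1.13 to 1.20). The read ratio of RNF43 to ZNRF3 was 0.577 in MKN74 overexpression against 0.660 in control MKN74, 0.873 times as high.

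EPHB2 and EPHB3 are receptor tyrosine kinases for B-type ephrins that position cells along the intestinal crypt, and EPHB2 alone of the pair was higher with overexpression. EPHB2 stood at 81.3 CPM in AGS overexpression against 64.1 CPM in control AGS, a change of 0.34 and a CPM ratio of 1.27 (1.21 to 1.34). In MKN74 overexpression it was at 5.87 CPM, from 269 reads, against 1.75 CPM and 73 reads in control MKN74. That change of 1.32, with a ratio of 3.36 (2.58 to 4.41), was the largest of any member in either line.

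EPHB3 stood at 11.8 CPM in AGS overexpression against 15.1 CPM in control AGS, a change of -0.33 and a CPM ratio of 0.783 (0.695 to 0.881). In MKN74 overexpression EPHB3 was at 22.7 CPM and in control MKN74 at 23.4 CPM, a ratio of 0.970 whose interval (0.888 to 1.06) included 1. The read ratio of EPHB2 to EPHB3 was 6.90 in AGS overexpression against 4.25 in control AGS, 1.62 times as high. In MKN74 that read ratio was 0.259 in overexpression against 0.0748 in the control, 3.46 times as high.

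LEF1 and TCF7 encode DNA-binding partners of beta-catenin that are also its targets. LEF1 was listed at 0 in both AGS libraries, where 0 allows up to 3 reads, or 0.0694 CPM in AGS overexpression and 0.0731 CPM in control AGS. In MKN74 overexpression it was at 41.1 CPM, against 23.4 CPM in control MKN74, a change of 0.78 and a CPM ratio of 1.75 (1.62 to 1.90). LEF1 was therefore detected in MKN74 and not detectable in AGS at this depth.

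TCF7 stood at 29.9 CPM in AGS overexpression and 29.9 CPM in control AGS, a ratio of 0.999 whose interval (0.923 to 1.08) included 1. In MKN74 overexpression TCF7 was at 16.3 CPM, against 19.0 CPM in control MKN74, a change of -0.21 and a CPM ratio of 0.859 (0.776 to 0.9502). TCF7 overlaps VDAC1, a mitochondrial channel gene that stood at 311 CPM in AGS overexpression against 383 CPM in control AGS, and at 432 CPM in MKN74 overexpression against 492 CPM in control MKN74, and the part of its reads in the counts of TCF7 was not tested. The read ratio of TCF7 to LEF1 in MKN74 was 0.397 in overexpression against 0.810 in the control.

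**Figure D2:**
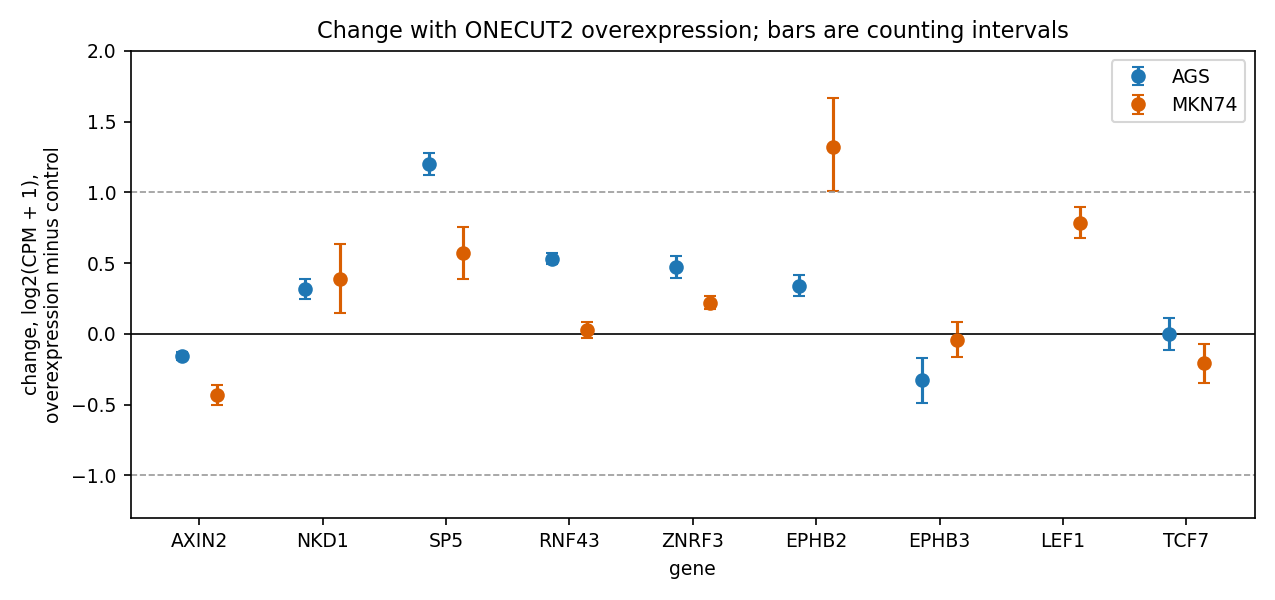
Change of each gene with ONECUT2 overexpression, on the log2(CPM + 1) scale, overexpression minus control; points are 1 library against 1 library, bars are 95% counting intervals, and dashed lines mark a 2-fold change. SP5 in AGS (1.20) and EPHB2 in MKN74 (1.32) lay past the upper dashed line.

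The 8 members measured in both lines had a change of the same sign in each. SP5, NKD1, ZNRF3, EPHB2 and RNF43 were higher in both lines, and AXIN2, EPHB3 and TCF7 were lower, TCF7 in AGS by a change of only -0.0018. Of 10766 genes measured in both lines 56.7% had the same sign, 25.6% higher in both and 31% lower in both. The counting interval of RNF43 and EPHB3 in MKN74 and of TCF7 in AGS included 1, and with CPM taken from the recovered reads 6 of the 8 kept the same sign, EPHB3 in MKN74 and TCF7 in AGS being the exceptions.

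With the lines as replicates, no member was called for a common effect of overexpression by limma with the line as a term. That fit called 0 of 12340 genes, or 0% at a Benjamini-Hochberg adjusted p of 0.05, and 566 genes, or 4.59%, had an unadjusted p under 0.05. A voom fit of the recovered reads also called 0, with 902 genes under an unadjusted 0.05. SP5 had a common change of 0.88 (SE 0.22) and was higher in both lines, with a limma adjusted p of 0.8 and an unadjusted one under 0.05. EPHB2 had 0.83 (SE 0.29) and was higher in both lines, with the same limma adjusted p of 0.8 and an unadjusted one under 0.05. The other 7 members had limma adjusted p-values between 0.8 and 0.899. In the voom fit the unadjusted p of EPHB2 was 0.113 and that of LEF1 was 0.0245. LEF1 was listed at 0 in both AGS libraries, so its common change comes from MKN74 alone and is not replicated across the lines. ONECUT2 itself, with a common change of 2.55 (SE 0.38), was not called either, at a limma adjusted p of 0.8. The limma fit has 1 residual degree of freedom, so the absence of a call does not show that a gene was unchanged.

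The lines themselves differed at every member. In the same limma fit the level in MKN74 differed from that in AGS for 9 of 9 members, 3 higher and 6 lower in MKN74. Among all genes 43.2% were called, 20.9% higher and 22.3% lower in MKN74. Each comparison rests on 2 libraries per line, which differ in ONECUT2 overexpression. The limma p-values use a variance that moderation draws in part from other genes. They do not measure the spread between replicates of a line, since a line had no replicates of a group.

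EPHB2 had the most negative difference, at -4.08 (SE 0.29; limma adjusted p = 0.00176). Its level was 5.87 CPM in MKN74 overexpression against 81.3 CPM in AGS overexpression, and 1.75 CPM in control MKN74 against 64.1 CPM in control AGS. NKD1 followed with -3.73 (SE 0.18; limma adjusted p = 0.000794), at 5.43 against 82.5 CPM between the overexpression libraries and 3.92 against 66.0 CPM between the controls, MKN74 against AGS. AXIN2 differed by -2.76 (SE 0.17; limma adjusted p = 0.00123) and SP5 by -2.61 (SE 0.22; limma adjusted p = 0.00264). RNF43 (-1.06, adjusted p = 0.0167) and TCF7 (-0.73, adjusted p = 0.0328) had smaller differences in the same direction, by limma.

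LEF1 was higher in MKN74. Set against 3 reads in the matching AGS library, LEF1 was 592 times as high in MKN74 overexpression and 320.2 times as high in control MKN74. These figures leave out the counting error of the MKN74 library. The lower limit of the counting interval of the ratio, MKN74 over AGS, was 481 between the overexpression libraries and 260 between the controls. The limma adjusted p was 0.0011, and the fitted difference depends on the pseudocount because AGS was at 0. ZNRF3 was higher in MKN74 by 1.36 (SE 0.17; limma adjusted p = 0.00597) and EPHB3 by 0.74 (SE 0.19; limma adjusted p = 0.0377). Within each related pair the members thus differed between the lines in opposite directions: RNF43 was lower in MKN74 and ZNRF3 higher, EPHB2 lower and EPHB3 higher, and TCF7 lower and LEF1 higher.

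**Figure D3:**
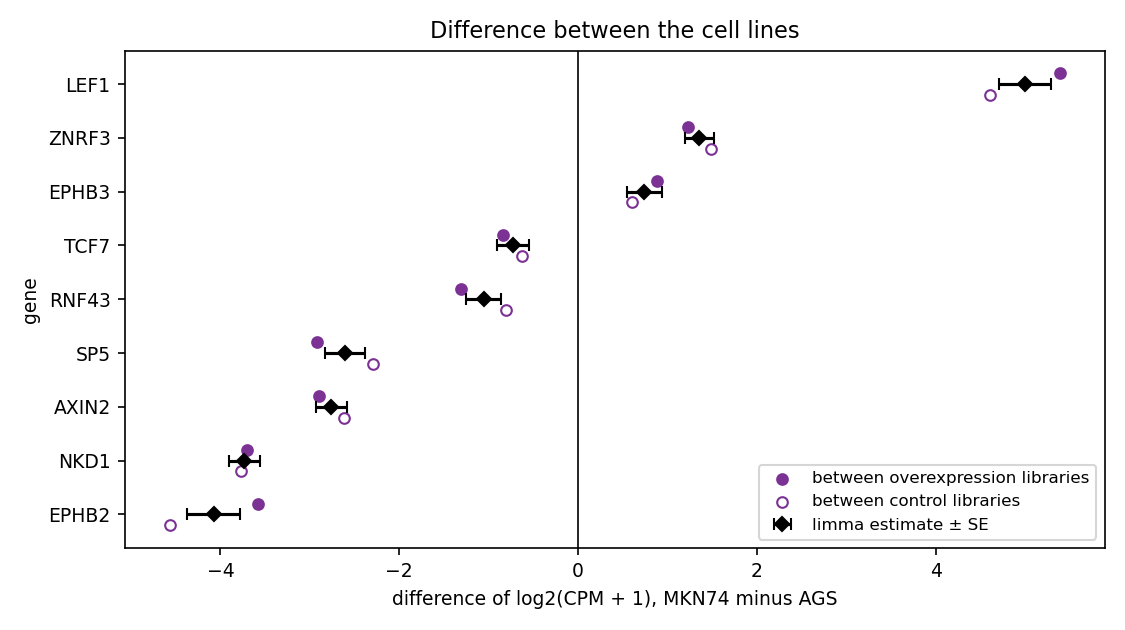
Difference of log2(CPM + 1) between the lines, MKN74 minus AGS, for each gene, ordered from the most positive to the most negative; diamonds are limma estimates with their SE, filled circles compare the overexpression libraries and open circles the controls. LEF1, ZNRF3 and EPHB3 lay above 0 and the other 6 genes below it in both comparisons.

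LEF1 had the widest range over the 4 libraries, 5.39 on the log2 scale. The genes whose centred log2 profile lay closest to it, by Euclidean distance over 4 libraries, were FBXO41 (distance 0.141), NRSN2 (0.161) and PRAME (0.260). PRAME, a tumour antigen gene, stood at 40.9 CPM in MKN74 overexpression and 23.1 CPM in control MKN74, against 0.231 CPM in AGS overexpression and 0.0975 CPM in control AGS.

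Upstream of the members, the largest changes were those of the receptor genes LGR4 and FZD7 in MKN74. Of 14 measured receptors and co-receptors in MKN74, 2 were at least 2-fold higher and 1 lower, with a median change of 0.31, against 0 of 12 either way in AGS with a median of 0.042. The higher count in MKN74 was 4 with a pseudocount of 0.1. Over all genes 3.26% were at least 2-fold higher and 1.35% lower in MKN74, and 4.19% and 0.728% in AGS. These shares stand beside the counts of the lists below as well. LGR4, a receptor for R-spondins, which protect Frizzled from RNF43 and ZNRF3, stood at 153 CPM in MKN74 overexpression against 19.9 CPM in control MKN74, a change of 2.88. It was at 152 CPM in AGS overexpression against 221 CPM in control AGS, a change of -0.54. FZD7, a Frizzled receptor, was at 103 CPM in MKN74 overexpression against 17.4 CPM in control MKN74, a change of 2.497, and at 40.4 against 36.5 CPM in AGS, overexpression against control. FZD10 was the receptor lower in MKN74, at 4.73 CPM in overexpression against 12.5 CPM in the control.

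LGR5, the R-spondin receptor that marks intestinal stem cells, was high in AGS and near 0 in MKN74. It stood at 0.0872 CPM in MKN74 overexpression and 0.0239 CPM in control MKN74, against 186 CPM in AGS overexpression and 347 CPM in control AGS. The difference between the lines was -7.92 (SE 0.30; limma adjusted p = 0.000617), and the change of LGR5 within AGS was -0.89. The co-receptor gene LRP5 had changes of 0.59 in AGS and 0.12 in MKN74.

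Among WNT ligands and R-spondins, 8 of 23 genes had a row, 3 were measured in AGS and 6 in MKN74. WNT11 was the only one of those measured past 2-fold, at 22.0 CPM in MKN74 overexpression against 106 CPM in control MKN74, a change of -2.22. In AGS it was at 0.0462 CPM in overexpression and at 0 in the control. WNT10A, at 90.8 CPM in MKN74 overexpression and 96.6 CPM in control MKN74, and WNT6, at 30.8 and 18.9 CPM in the same order, were both called higher in MKN74 than in AGS by limma (adjusted p of 0.000556 and 0.00108). In AGS, WNT6 fell under the mean of 1 CPM. It was at 1.25 CPM in AGS overexpression, from 54 reads, against 0.146 CPM and 6 reads in control AGS. The CPM ratio was 8.54 (3.68 to 24.3).

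The destruction complex and beta-catenin list had 0 of 13 members past 2-fold in either line, with medians of 0.082 in AGS and -0.039 in MKN74. CTNNB1, which encodes beta-catenin, had changes of -0.14 in AGS and -0.14 in MKN74. Of 11 nuclear partners of TCF proteins, 0 passed 2-fold in AGS and 1 in MKN74. That gene was TLE4, a corepressor, at 11.5 CPM in MKN74 overexpression against 1.46 CPM in control MKN74, a change of 2.34, beside 0.44 in AGS.

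Among WNT inhibitors, 1 of 6 measured in MKN74 was at least 2-fold higher and 0 of 5 in AGS. APCDD1, a membrane inhibitor, stood at 113 CPM in MKN74 overexpression against 51.9 CPM in control MKN74, a change of 1.11, and was listed at 0 in both AGS libraries. DKK1, a secreted antagonist of LRP co-receptors, showed the reverse distribution, at 0.0654 CPM in MKN74 overexpression and 0.0957 CPM in control MKN74, against 150.2 CPM in AGS overexpression and 162 CPM in control AGS. TNFRSF19 had changes of 0.21 in AGS and -0.99 in MKN74.

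Other genes used as WNT targets were at least 2-fold higher at 4 of 16 in AGS and 3 of 15 in MKN74, with 1 lower in each line and medians of 0.39 and 0.073. Over all genes 4.19% were higher and 0.728% lower in AGS, and 3.26% and 1.35% in MKN74, with medians of -0.0034 and -0.020. In MKN74 the count of 3 became 1 when genes under 5 CPM were left out, and also 1 with a pseudocount of 2. CEMIP, which degrades hyaluronan, was among the higher ones in both, at 104 CPM in AGS overexpression against 46.3 CPM in control AGS (change 1.15) and at 4.80 CPM in MKN74 overexpression against 1.41 CPM in control MKN74 (change 1.27). Its common change was 1.21 (SE 0.18), with a limma adjusted p of 0.8. VEGFA (1.87), PROX1 (1.52) and PLAUR (1.45) were the others in AGS, and CD44 (1.11) and ID2 (2.90) in MKN74. CD44 stood at only 2.03 CPM, from 93 reads, in MKN74 overexpression against 0.407 CPM and 17 reads in control MKN74. It passed the mean of 1 CPM only through the overexpression library, so its count as a higher gene is weak. SOX9 was the lower one in MKN74, at -1.67, and ID2 in AGS, at -1.65. Many of these genes answer to other pathways as well. CCND1, the cyclin D1 gene, had changes of 0.0058 in AGS and -0.17 in MKN74.

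Ephrins are the ligands of the EPHB receptors. Of these genes 1 of 6 measured in AGS was at least 2-fold higher, EFNB1 (1.02), and 1 of 7 in MKN74 was lower, EFNB2, which stood at 84.1 CPM in MKN74 overexpression against 199.7 CPM in control MKN74 (change -1.24). The count in AGS was 0 with a pseudocount of 2, a common median or quantile normalization. Of the 6 other EPH receptors measured, 0 passed 2-fold in either line, and EPHB4 had changes of 0.24 in AGS and -0.24 in MKN74.

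In the limma fit 0 genes of these lists were called for a common overexpression effect, and between 0 and 2 members per list had an unadjusted p under 0.05. For the difference between the lines, the receptors had 3 called higher in MKN74 and 7 lower of 14, and the other target genes 1 higher and 9 lower of 17. The destruction complex list had 1 higher and 3 lower of 13, and the ligands 5 higher and 1 lower of 7. The nuclear partners had 2 higher and 2 lower of 11, and the inhibitors 3 higher and 2 lower of 6. The ephrins had 2 higher and 4 lower of 8, and the other EPH receptors 1 higher and 2 lower of 6. Over all genes 20.9% were called higher in MKN74 and 22.3% lower.

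**Figure D4:**
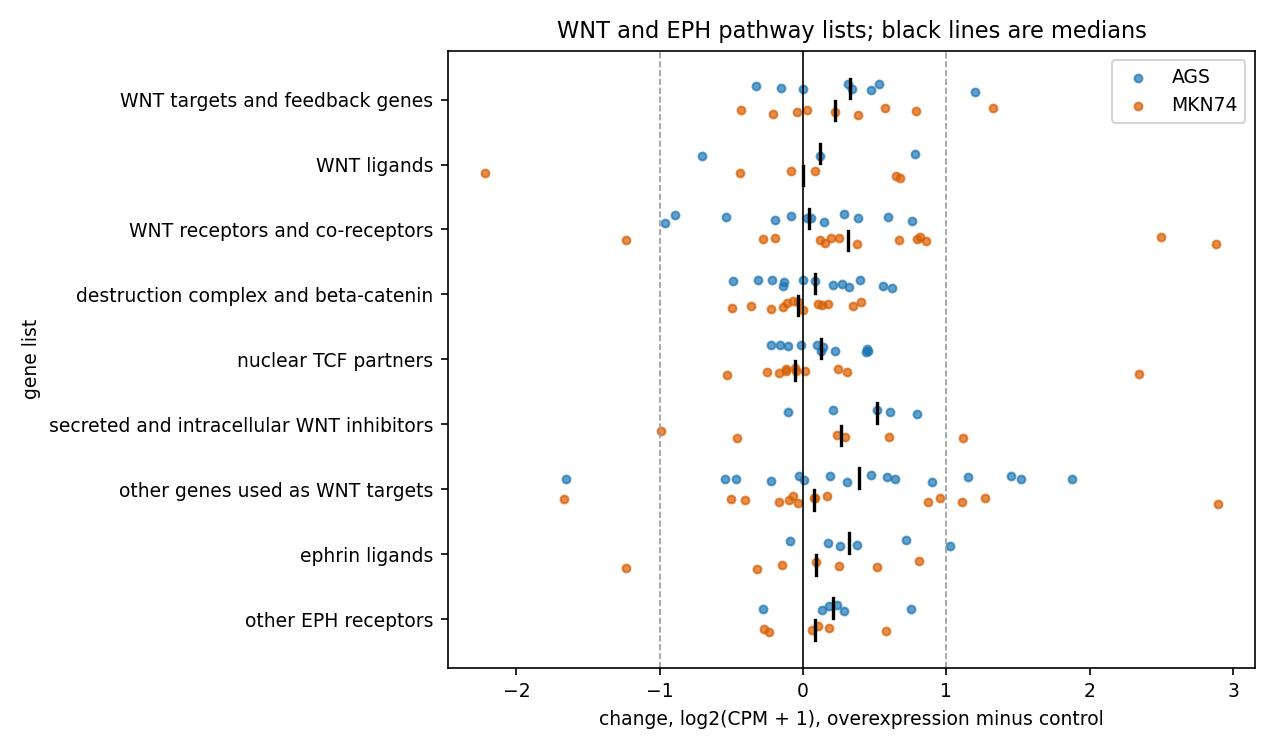
Change of each measured gene with ONECUT2 overexpression, on the log2(CPM + 1) scale, overexpression minus control, for the 9 genes and the other WNT and EPH lists; each point is a gene, AGS is above MKN74 within a list, black lines are medians and dashed lines mark a 2-fold change. LGR4 (2.88) and FZD7 (2.497) are the far points among the receptors in MKN74.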

How the data were processed

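RNA libraries were made with the TruSeq RNA kit, per the labels' protocols. Per the submitters' processing notes, edgeR 3.12.1, STAR 2.5.1, HOMER 4.9.1, Bowtie2 2.1.0 and CASAVA 1.7 were used with build hg19; what each did is not stated there. The sources used here do not give the counter, its annotation or its strand setting, so reads of overlapping and antisense genes cannot be told apart: in RefSeq (GRCh38.p14) NKD1 overlaps NKD1-AS1, ZNRF3 overlaps ZNRF3-AS1, LEF1 overlaps LEF1-AS1 and LOC124900752, RNF43 overlaps TSPOAP1-AS1, SP5 overlaps ERICH2-DT, EPHB2 overlaps MIR4684, MIR4253 and LOC124903874, and TCF7 overlaps VDAC1. AXIN2 and EPHB3 overlap 0 annotated genes.

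The authors deposited log2 values, which are log2(CPM + 1) by the values themselves. Undone, 100% of values were whole multiples of a step per library, at most 3.2e-08 of a read from whole. Recovered reads made up 83.1% to 88.1% of the implied library sizes, and 18 of 13109 rows, named by a date, with 0.218% to 0.239% of reads, were left out.

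Changes within a line were counted at 2-fold where a gene averaged at least 1 CPM in that line. A count of 0 allows up to 3 reads. limma was fitted to log2(CPM + 1) on line and overexpression, across genes that averaged at least 1 CPM over the 4 libraries, with trend moderation and Benjamini-Hochberg adjusted p-values called at 0.05. The cell line pairs the libraries. The limma step was tested on simulated data. The members and lists were chosen with earlier results of these data known. Named were all members, ONECUT2, list genes changed 2-fold or among the 3 highest of a list, and the 3 nearest profiles. Alternatives were pseudocounts of 2 and 0.1, other filters, scalings and sizes, moderation without trend, voom, and the line left out. Software was limma 3.58.1 in R 4.3.3, and Python 3.11.15 with scipy 1.17.1, pandas 2.3.3, numpy 2.4.6 and matplotlib 3.10.9.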

Additional observations from a re-analysis of the deposited data

Results flagged for a closer look

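ID2, which blocks DNA binding by helix-loop-helix factors and stands in the list of other WNT targets, differed past 2-fold from its control in opposite directions in the lines. Its change was -1.65 in AGS, at 33.5 CPM in overexpression against 107 CPM in the control, and 2.90 in MKN74, at 221 CPM in overexpression against 28.8 CPM in the control. The difference between the lines was not tested, since each change rests on 1 library per group. The 8 WNT members measured in both lines each had changes of the same sign in both. That alone keeps their counting intervals from lying on opposite sides of 1. The share of all genes with intervals on opposite sides was not counted.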

How the results depend on the processing

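In the limma fits, 0 members were called for a common effect and 9 of 9 for the difference between the lines under every alternative run. Genes called for that difference ranged from 4386 to 5676, and its LEF1 estimate from 4.05 to 11.4. Without the line as a term (no replicate block) the common effect had 0 calls and 12 genes with an unadjusted p under 0.05. The lowest adjusted p of SP5 for the common effect was 0.591, with voom.

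Members at least 2-fold higher in MKN74 numbered 0 at a mean of at least 5 CPM, which leaves out EPHB2. At 1.5-fold 2 were higher, and the share of all genes past 1.5-fold was not counted. The median in MKN74 was 0.026 at 5 CPM. Of 85 recomputed member changes 2 turned sign, both with CPM from recovered reads: TCF7 in AGS (0.058) and EPHB3 in MKN74 (0.011). EPHB2 in MKN74 was 1.69 with a pseudocount of 0.1.

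Of 256 list counts 26 moved, either by more than 1.5 times or from or to 0. Of these, 15 moved at the 1.5-fold cutoff, which can only raise a count, and 11 under other settings. At 1.5-fold, AGS had 1 ligand higher and 1 lower, 2 receptors higher and 2 lower, 1 destruction complex gene, 2 inhibitors, 7 other targets, 2 ephrins and 1 other EPH receptor higher. MKN74 had 2 ligands, 6 receptors, 2 inhibitors, 5 other targets and 1 ephrin higher, and 1 inhibitor lower. The share of all genes past 1.5-fold was not counted, so these counts cannot be set against a general rate. With a pseudocount of 0.1, MKN74 had 4 receptors and 1 ephrin higher and 1 inhibitor lower (also 1 with a common median), and AGS 1 other EPH receptor higher. With no filter 1 inhibitor was higher in AGS. Other targets higher in MKN74 numbered 1 with a pseudocount of 2 and 1 at 5 CPM. Ephrins higher in AGS numbered 0 with a pseudocount of 2, a common median or quantile normalization. The causes were not tested. With 1 library per group these counts had no replicate check. LEF1 was at 0 in AGS, and the counts of EPHB2 and NKD1 in MKN74 were low.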
